A study of Mus musculus with 20 samples.

Results

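The 10 genes described here encode ion channels of vascular smooth muscle or their partners, and they were followed across the microvessels of the mouse kidney cortex. They were Kcnma1, Kcnmb1, Kcnab1, Kcnj8, Abcc9, Cacna1c, Cacna1h, Jph2, Itpr1 and Ryr2. Each was chosen by name, with earlier results of these data known, and matched exactly 1 of the 34255 genes in the count table. Messenger RNA was measured by 3′ mRNA sequencing in 5 groups of 4 libraries. Whole kidney was 1 group, and the others were vessels cut out of sections by laser microdissection, namely arterioles, glomeruli, capillaries of the peritubular bed and the venules that drain them. All mice were healthy male control C57BL6/OlaHsd animals of wild-type genotype, 8 to 12 weeks old. Arterioles, glomeruli and venules were recognized by shape on hematoxylin-stained sections, whereas capillaries were cut from a section stained with isolectin B4, a lectin that binds endothelium. A smaller area was captured for arterioles and capillaries than for glomeruli and venules. The PCR of the library preparation ran for 24 cycles in microdissected samples and 18 in whole kidney, so a difference between a compartment and whole kidney cannot be told apart from a difference in library preparation. In the labels these samples are biological replicates, but no mouse is named, so p-values measure only the spread between the samples. Libraries are named here by the number in their column header (93, 96, 98 or 100). The header of capillary library 96 also carries the letters WH, whose meaning the labels do not give.

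Smooth muscle cells set the diameter of a resistance vessel through their cytosolic calcium. Calcium enters through voltage-gated channels when the membrane depolarizes and is released from the sarcoplasmic reticulum through inositol trisphosphate and ryanodine receptors. Potassium channels oppose this by hyperpolarizing the cell. The large-conductance calcium-activated potassium channel (BK channel), the voltage-gated Kv channels and the ATP-sensitive channels are the main classes of this brake. In the kidney the contractile vessels include the arterioles that feed the glomeruli.

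Libraries held between 4639090 and 12283098 counts. Levels are given as counts per 1000000 counts (CPM), on library totals scaled by the trimmed mean of M values (TMM). Reads were counted at the 3′ end, so levels are compared between groups for 1 gene and not between genes. The label of the arterioles was checked with 15 contractile genes of smooth muscle, such as Acta2 and Myh11. These took 2.10% to 3.63% of the counts in arterioles, 0.0712% to 0.0913% in whole kidney, 0.0728% to 0.0827% in capillaries, 0.154% to 0.185% in venules and 0.263% to 0.410% in glomeruli. The 12 markers of mesangial cells and pericytes took 0.441% to 0.651% of the counts in arterioles and at most 0.238% in any library of another group. Other lists also differed between groups, and their part in the results was not tested. The endothelial list took 0.274% to 0.345% in arterioles and 0.403% to 0.508% in glomeruli, the erythrocyte list 1.06% to 4.16% in arterioles and 0.238% to 0.458% in whole kidney, and the fibroblast and adventitia list 0.222% to 0.329% and 0.0321% to 0.0376%. Podocyte markers took 0.0838% to 0.154% in arterioles and 0.881% to 1.13% in glomeruli. The 2 genes of renin cells took at most 0.00141% in arterioles and 0.0934% to 0.199% in glomeruli. Leukocyte markers took 0.0152% to 0.0513%, markers of the later tubule 0.0331% to 0.106% and those of nerve and Schwann cells at most 0.00930% of the arteriole counts. Markers of proximal tubule took 6.20% to 8.17% of the counts in capillaries against 3.90% to 4.25% in whole kidney, while the endothelial list took 0.0516% to 0.112% in capillaries and 0.0544% to 0.0632% in whole kidney. The capillary libraries therefore carried a larger share of proximal tubule markers than whole kidney, and their endothelial share overlapped with it. In bulk samples of this kind, fewer cells of a type and less RNA per cell cannot be told apart.

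Jph2, Kcnab1, Kcnma1 and Kcnmb1 were higher in arterioles than in whole kidney by 5.58 to 8.10 on the log2 scale. Cacna1c and Cacna1h were high in some arteriole libraries and at or near 0 in others, Itpr1 was high everywhere, and Kcnj8, Abcc9 and Ryr2 were each carried by 1 arteriole library. A gene was called higher than whole kidney when its log2 fold change was over 1 and its false discovery rate (FDR) under 0.05 in edgeR's quasi-likelihood test, fitted on all 20 libraries. Cacna1h and Ryr2 did not pass the filter on low counts, which left 8 genes tested. Kcnab1 passed it only with its arteriole libraries. It had at most 17 counts in any whole kidney library and at most 6 in any glomerular, capillary or venule library. Its call and its lack of overlap are therefore not independent of the filter. In arterioles 4 of the 8 were called higher, beside 5.78% of all 13813 genes tested, and none was called lower, beside 5.5% of all genes. Every arteriole library lay above every whole kidney library for 3 of the 8 genes (Jph2, Kcnab1 and Kcnmb1), beside 8.45% of all genes. The median log2 fold change was 5.05 over the 8 genes and 0.22 over all genes tested. Because the genes were chosen with earlier results of these data known, these shares and medians do not measure an excess over all genes.

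**Figure D1:**
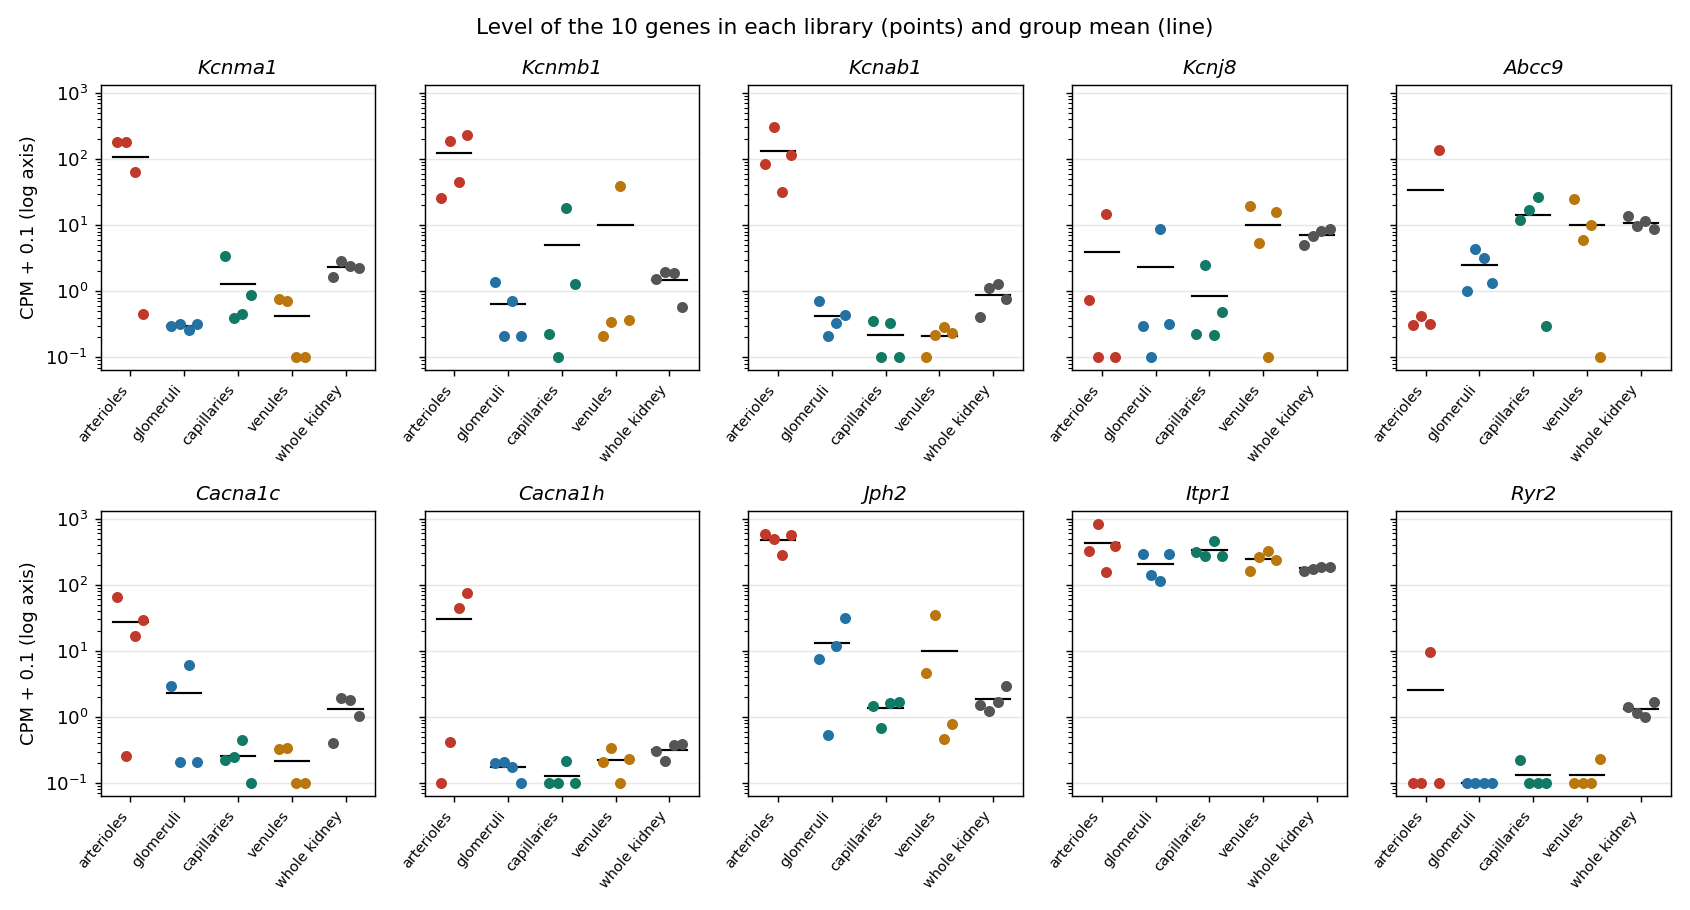
Level of each of the 10 genes in each library, in CPM plus 0.1 on a log axis, with the libraries of a group in the order 93, 96, 98 and 100 and a line at the group mean. All 4 arteriole libraries of Jph2 sit between 283 and 582 CPM, above every other library, whereas Itpr1 lies between 114 and 838 CPM in all 20 libraries.

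The BK channel is built from a pore-forming alpha subunit, encoded by Kcnma1, and in smooth muscle from a beta1 subunit, encoded by Kcnmb1, which raises its calcium sensitivity. Kcnma1 spans chr14:23289431-24014491 on the minus strand and Kcnmb1 chr11:33963013-33973641 on the plus strand of GRCm38. Because both genes rose in arterioles, the RefSeq sequence around a start of each is shown (GRCm38.p6, 250 bases before to 50 after the start, 5′ to 3′ along the gene). The Kcnma1 window is chr14:24004156-24004455, and the Kcnmb1 window is chr11:33962763-33963062.
Kcnma1: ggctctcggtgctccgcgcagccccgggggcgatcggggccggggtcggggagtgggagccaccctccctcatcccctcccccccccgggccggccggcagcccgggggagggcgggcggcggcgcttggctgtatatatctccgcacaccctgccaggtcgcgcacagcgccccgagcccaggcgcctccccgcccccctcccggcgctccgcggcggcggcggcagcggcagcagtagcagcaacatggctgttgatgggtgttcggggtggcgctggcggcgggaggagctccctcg
Kcnmb1: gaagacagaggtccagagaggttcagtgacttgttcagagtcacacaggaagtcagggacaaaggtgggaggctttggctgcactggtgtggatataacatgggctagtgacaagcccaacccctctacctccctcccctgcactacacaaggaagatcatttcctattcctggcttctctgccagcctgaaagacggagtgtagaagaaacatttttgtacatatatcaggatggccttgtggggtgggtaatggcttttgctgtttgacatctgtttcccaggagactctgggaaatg
The windows differ in base composition, with 78.0% G or C for Kcnma1 and 49.7% for Kcnmb1. Neither holds a CArG box, the element bound by serum response factor in many contractile genes, nor a MEF2 motif, nor CATTCC, the core bound by TEAD factors, on either strand. These occur in 1.63%, 3.19% and 14.7% of the 32851 promoter windows of the same length.

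Kcnma1 reached 178, 181 and 64.5 CPM in arteriole libraries 93, 96 and 98 but only 0.357 CPM in library 100, which held 2 counts of the gene. It was at 1.52, 2.76, 2.33 and 2.17 CPM in whole kidney, at 0.156 to 0.221 CPM in glomeruli, at 0.295 to 3.36 CPM in capillaries and at 0 to 0.672 CPM in venules. Arteriole libraries 93, 96 and 98 thus lay above all other libraries, and library 100 lay below whole kidney. The mean was 106 ± 89.0 CPM (SD, n = 4) in arterioles, 48.3 times that of whole kidney, and the fitted log2 fold change was 5.58 (approximate SE 1.68, FDR 0.0270, edgeR). The call ended when arteriole library 93, arteriole library 96 or any 1 whole kidney library was left out, with a highest FDR of 0.0856.

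Kcnmb1 was found in all 4 arteriole libraries, at 25.8, 186, 44.4 and 230 CPM in libraries 93, 96, 98 and 100. Whole kidney held 1.42, 1.84, 1.78 and 0.472 CPM, and glomeruli 0.110 to 1.30 CPM. Capillaries were at 0.124, 0 and 1.17 CPM in libraries 93, 96 and 100 and at 17.96 CPM in library 98. Venules were at 0.112, 0.243 and 0.268 CPM in libraries 93, 96 and 100 and at 38.72 CPM in library 98. Arterioles therefore did not overlap with whole kidney, glomeruli or capillaries, but venule library 98 lay above the lowest arteriole library. The mean in arterioles was 121 ± 102 CPM (SD, n = 4), 88.0 times that of whole kidney, with a log2 fold change of 6.45 (approximate SE 1.93, FDR 0.0271, edgeR). The call ended without arteriole library 96, arteriole library 100 or any 1 whole kidney library, with a highest FDR of 0.0833.

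Both BK subunits were above 3 counts in 3 arteriole libraries and in all 4 whole kidney libraries. In arteriole library 100 the beta1 subunit was at its highest level and the pore subunit at 2 counts. In the 12 libraries of glomeruli, capillaries and venules, both were above 3 counts in only 1 library, a capillary library.

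Kcnab1 encodes a beta subunit of Kv channels, a cytoplasmic protein that binds the pore subunits and modifies their gating. It lies at chr3:65109384-65378223 on the plus strand. Arterioles held 84.6, 305, 31.7 and 115 CPM in libraries 93, 96, 98 and 100, and whole kidney 0.304, 1.04, 1.17 and 0.661 CPM. The gene was almost absent from the other vessels, with 13 counts summed over the 4 glomerular libraries, 4 over the capillary libraries and 3 over the venule libraries. No arteriole library overlapped with any library of another group. The arteriole mean of 134 ± 119 CPM (SD, n = 4) was 169 times that of whole kidney, and the log2 fold change of 7.37 (approximate SE 1.57, FDR 0.00154, edgeR) stayed called whichever library was left out, and was 6.57 without arteriole library 96.

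The ATP-sensitive potassium channel of smooth muscle combines the pore subunit Kir6.1, encoded by Kcnj8, with the sulfonylurea receptor SUR2, encoded by Abcc9. Their genes are neighbours on the minus strand of chromosome 6, Kcnj8 at chr6:142564837-142571614 and Abcc9 at chr6:142587862-142702315, with 16247 bases and no annotated gene between them. Their RefSeq start windows are shown because the genes are partners and were not found in the same arteriole libraries. They are chr6:142571565-142571864 for Kcnj8 and chr6:142702225-142702524 for Abcc9, with motif matches in capitals.
Kcnj8: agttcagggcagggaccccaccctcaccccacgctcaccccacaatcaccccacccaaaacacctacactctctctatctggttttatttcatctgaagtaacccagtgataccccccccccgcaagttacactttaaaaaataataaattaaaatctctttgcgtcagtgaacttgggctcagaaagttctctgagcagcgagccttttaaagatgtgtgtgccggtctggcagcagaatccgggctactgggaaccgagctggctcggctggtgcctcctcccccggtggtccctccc
Abcc9: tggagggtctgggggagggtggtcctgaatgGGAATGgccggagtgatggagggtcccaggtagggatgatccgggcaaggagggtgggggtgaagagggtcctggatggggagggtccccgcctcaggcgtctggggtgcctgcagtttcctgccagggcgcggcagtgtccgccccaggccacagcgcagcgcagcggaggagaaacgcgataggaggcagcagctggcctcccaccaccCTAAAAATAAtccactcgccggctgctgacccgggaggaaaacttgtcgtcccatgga
The Abcc9 window holds a MEF2 motif that begins 8 bases before the start and reads as a match on both strands, and CATTCC on the opposite strand. The Kcnj8 window holds neither motif and no CArG box. Over all 13 windows of the 8 genes that have one, 1 held a MEF2 motif, 1 held CATTCC and 0 held a CArG box.

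Kcnj8 was at 14.5 CPM in arteriole library 98 and at 0.640, 0 and 0 CPM in libraries 93, 96 and 100. Whole kidney was even, at 4.86, 6.68, 8.02 and 8.50 CPM. Venules were at 19.3, 5.35 and 15.7 CPM in libraries 93, 96 and 100 and at 0 CPM in library 98. Glomeruli were at 8.57 CPM in library 98 and at most 0.221 CPM in the others, and capillaries were at 0.117 to 2.36 CPM. All 4 capillary libraries lay below whole kidney, while arterioles, glomeruli and venules each had libraries on both sides of it. The difference between arterioles and whole kidney was −0.88 on the log2 scale (approximate SE 2.00, FDR 0.790, edgeR).

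Abcc9 was at 135 CPM in arteriole library 100 and at 0.213, 0.322 and 0.225 CPM in libraries 93, 96 and 98. Whole kidney held 13.5, 9.45, 11.4 and 8.69 CPM. Capillaries held 11.9, 16.8 and 26.8 CPM in libraries 93, 96 and 98 but 0.196 CPM in library 100, and venules 24.5, 5.83, 9.82 and 0 CPM. Glomeruli were lower, at 0.902 to 4.31 CPM. A single arteriole library thus carried the arteriole mean of 33.8 ± 67.2 CPM (SD, n = 4). The log2 fold change against whole kidney was 1.65 with all libraries (approximate SE 1.77, FDR 0.542) and -5.33 without arteriole library 100 (FDR 0.102, edgeR). No arteriole library held both subunits of the ATP-sensitive channel above 3 counts. Both were above 3 counts in 4 whole kidney, 2 venule, 1 glomerular and 1 capillary library.

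Cacna1c encodes the pore of the L-type calcium channel, the main route of voltage-gated calcium entry in arterial muscle, and Cacna1h a T-type channel that opens at more negative voltages. Cacna1c lies at chr6:118587240-119196418 and Cacna1h at chr17:25374285-25433783, both on the minus strand. Cacna1c was at 64.8, 16.9 and 28.7 CPM in arteriole libraries 93, 98 and 100 and at 0.161 CPM, or 1 count, in library 96. Whole kidney held 0.304 to 1.84 CPM, glomeruli 0.110 to 5.92 CPM, and capillaries and venules at most 0.350 CPM. Arteriole libraries 93, 98 and 100 lay above the 16 libraries of the other groups. The gene was not called against whole kidney (log2 fold change 4.51, approximate SE 2.03, FDR 0.116, edgeR), although DESeq2's Wald test called it (FDR 0.00257).

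Cacna1h was at 44.9 and 75.3 CPM in arteriole libraries 98 and 100 and at 0 and 0.322 CPM in libraries 93 and 96. None of the 16 other libraries held more than 4 counts of it. It was not in the edgeR fit because too few libraries passed the filter. With no filter its FDR against whole kidney was 0.0912 (log2 fold change 7.04), and DESeq2's Wald test gave 3.28e-05. Both calcium channel genes were above 3 counts in 2 arteriole libraries, Cacna1c alone in 1 and neither in 1.

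Jph2 encodes junctophilin 2, which ties the sarcoplasmic reticulum to the plasma membrane so that store and surface channels lie close together. It lies at chr2:163336242-163397993 on the minus strand. Arterioles held 582, 494, 283 and 568 CPM in libraries 93, 96, 98 and 100, against 1.42, 1.15, 1.58 and 2.83 CPM in whole kidney and 0.590 to 1.57 CPM in capillaries. Glomeruli spread from 0.442 to 31.7 CPM, and venules held 4.48, 34.2, 0.371 and 0.670 CPM. The arteriole libraries were alike and lay above all others without overlap. Their mean of 482 ± 138 CPM (SD, n = 4) was 276 times that of whole kidney, with a log2 fold change of 8.10 (approximate SE 1.24, FDR 1.55e-05, edgeR). Leaving out any 1 library kept the call, with a highest FDR of 0.000307. The order of the means after arterioles was glomeruli, venules, whole kidney and capillaries, and the main edgeR fit called no pair among these 4. Fits with other filters on low counts called some of these pairs, as given in the closing section.

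Itpr1 encodes the type 1 inositol trisphosphate receptor, the release channel that opens on agonist stimulation, and Ryr2 the cardiac-type ryanodine receptor, whose calcium sparks activate BK channels. Itpr1 lies at chr6:108213096-108551109 on the plus strand and Ryr2 at chr13:11553102-12106945 on the minus strand. Itpr1 was at 329, 838, 157 and 385 CPM in arterioles and at 163, 176, 187 and 187 CPM in whole kidney. Its means were 427 ± 291 CPM in arterioles, 329 ± 93.1 CPM in capillaries, 248 ± 67.6 CPM in venules, 209 ± 96.3 CPM in glomeruli and 178 ± 11.8 CPM in whole kidney (SD, n = 4 each). No neighbours in this order differed by the test. Arteriole library 98 lay below every whole kidney library, the other 3 above. The log2 fold change against whole kidney was 1.26 (approximate SE 0.48, FDR 0.0735, edgeR), 1.54 without arteriole library 98 (FDR 0.0346) and 0.70 without arteriole library 96 (FDR 0.286). With DESeq2's size factors in place of TMM it was 1.56 (FDR 0.0432), while the median over all genes moved from 0.22 to 0.39.

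Ryr2 was at 9.67 CPM in arteriole library 98, from 86 counts, and at 0 in the 3 other arteriole libraries. Whole kidney held 0.891 to 1.61 CPM in every library, and the 12 libraries of the other compartments held 2 counts in all. It was not in the edgeR fit, and with no filter its FDR against whole kidney was 0.772. Cardiac muscle also uses Ryr2, Jph2 and Cacna1c. Of 8 cardiac and skeletal muscle markers, 6 (all but Myh6 and Acta1) were at 3 counts or fewer in every arteriole library. The list took 6.53e-05% to 0.0158% of the arteriole counts and 0.000259% to 0.000334% in whole kidney. Its mean share was highest in arterioles among the 5 groups, at 0.00638% against 0.000293% in whole kidney.

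None of the 8 tested genes was called in glomeruli, capillaries or venules against whole kidney. In glomeruli 1.59% of all genes were called higher and 1.47% lower, in capillaries 0.0869% and 0.00724%, and in venules 0.203% and 0.0217%. At an unadjusted p under 0.05, edgeR gave 2 genes in glomeruli (Jph2 higher, Kcnma1 lower), 0 in capillaries and 1 in venules (Jph2 higher). In the same comparisons 2077, 1719 and 1293 of all 13813 genes had such a p, in either direction. DESeq2 called 0 in each.

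The second comparison asked which genes mark 1 compartment, by testing it against the mean of the other 3 microdissected compartments. Jph2, Kcnab1 and Kcnmb1 passed as arteriole markers, with FDR under 0.05 and at least 10 CPM in all 4 arteriole libraries, beside 4.76% of all 12179 genes tested. For Jph2 and Kcnab1 the 4 arteriole libraries also lay above all 12 other microdissected libraries, beside 2.28% of all genes. At FDR alone 5 of the 8 were higher in arterioles, beside 8.11% of all genes, and 0 were lower, beside 3.23%. The additional 2 were Kcnma1, with a log2 difference of 7.89 (approximate SE 1.27, FDR 2.41e-05), and Cacna1c, with 6.20 (approximate SE 1.56, FDR 0.00657). Each failed the minimum in 1 arteriole library, Kcnma1 in library 100 and Cacna1c in library 96. The log2 difference was 9.53 for Kcnab1 (FDR 1.60e-07), 6.46 for Jph2 (FDR 5.48e-08) and 5.35 for Kcnmb1 (FDR 0.00327), and none of these 5 lost its FDR call when any 1 library was left out (edgeR). Kcnab1, Kcnma1, Kcnmb1 and Cacna1c passed the filter on low counts of this fit only with their arteriole libraries. Their calls here and between pairs of compartments, and the lack of overlap of Kcnab1, are therefore not independent of the filter. The size of the difference moved with single libraries. That of Kcnmb1 was 7.17 without venule library 98 and 6.51 without capillary library 98, that of Jph2 7.26 without venule library 96, that of Kcnab1 8.76 without arteriole library 96 and that of Cacna1c 5.37 without arteriole library 93.

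No gene of the 8 marked glomeruli, capillaries or venules, beside 1.48%, 3.24% and 0.23% of all genes. At FDR alone 0 of the 8 were higher there, beside 2.46%, 4.3% and 0.369% of all genes. At an unadjusted p under 0.05 edgeR gave 0 higher and 2, 2 and 1 lower. Of all 12179 genes, 1864, 2680 and 1492 had such a p, in either direction. DESeq2, for which the share over all genes is not given here, called 2, 2 and 1 lower. Lower calls by edgeR numbered 0 in glomeruli (1.33% of all genes), 1 in capillaries and 0 in venules (0.181%). Jph2 was lower in capillaries than in the mean of the other compartments, with a log2 difference of -4.96 (approximate SE 1.08, FDR 0.00237, edgeR), beside 2.91% of all genes lower there, and -4.15 without venule library 96. That mean includes the arterioles, in which the gene was highest.

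Between pairs of compartments, 4 genes were higher in arterioles than in glomeruli, beside 1.33% of all genes: Jph2, Kcnab1, Kcnma1 and Kcnmb1, the last at an FDR of 0.0499. No gene was lower, beside 0.862%. Without 1 library the count was 2 to 4. Kcnma1 and Kcnmb1 lost their calls without any 1 glomerular library, Kcnmb1 also without arteriole library 96 or 100, and Kcnab1 without arteriole library 96. The 3 genes Jph2, Kcnab1 and Kcnma1 were higher in arterioles than in capillaries (6.22% of all genes) and than in venules (2.5% of all genes), and 0 were lower, beside 4.98% and 1.87%. In these comparisons Jph2 and Kcnab1 kept their calls without any 1 library. Kcnma1 lost its call against capillaries without arteriole library 93 or 96 or capillary library 96, 98 or 100, and against venules without venule library 98 or 100. Kcnmb1 was not called against capillaries (log2 fold change 4.66, FDR 0.0974) or venules (3.62, FDR 0.227, edgeR).

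None of the 8 genes was called between glomeruli, capillaries and venules. At an unadjusted p under 0.05, edgeR gave 1 gene in each of these 3 comparisons. Of all 12179 genes, 2186 had such a p between glomeruli and capillaries, 1404 between glomeruli and venules and 1370 between capillaries and venules. DESeq2 called Jph2 higher in glomeruli than in capillaries and no gene in the other 2. Across genes, 2.2% were higher and 2.29% lower in glomeruli than in capillaries, 0.493% and 0.731% in glomeruli than in venules, and 0.0821% and 0.328% in capillaries than in venules. The comparisons of arterioles share the 4 arteriole libraries and are not independent of each other.

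**Figure D2:**
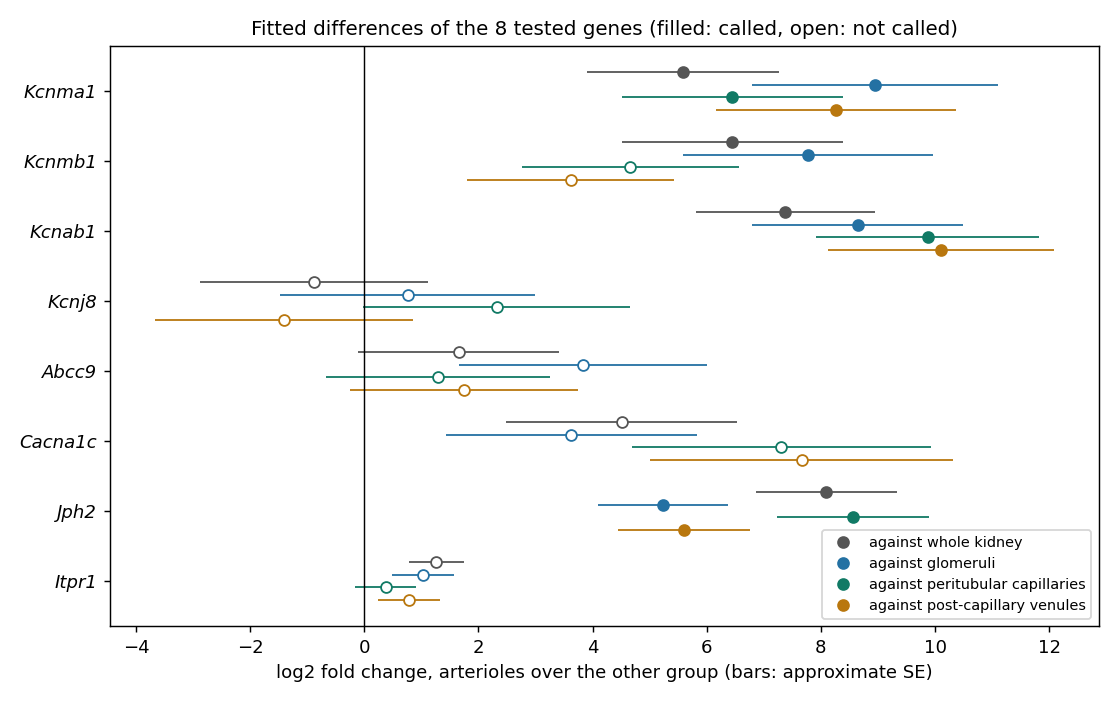
Fitted log2 fold changes of the 8 tested genes, arterioles over each of the 4 other groups, with bars for the approximate SE, filled points for called differences and open points for the rest. Jph2, Kcnab1 and Kcnma1 are called in all 4 comparisons, Kcnmb1 in 2, and Kcnj8, Abcc9, Cacna1c and Itpr1 in none.

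Levels of the 10 genes were next set against the smooth muscle signal of the same library, as counts per 1000 counts of the 15 contractile genes. These 15 took 2.10% to 3.63% of the counts in arterioles and at most 0.410% in any library of another group. A gene that rose less in arterioles than this list therefore came out lower there, so a lower ratio is not a lower level. Jph2 stood at 13.4 per 1000 in arterioles and 2.55 in whole kidney, and the 4 arteriole libraries lay above the 4 whole kidney libraries. Itpr1 stood at 10.5 per 1000 in arterioles against 364 in capillaries, 265 in whole kidney, 148 in venules and 79.1 in glomeruli, and all 16 other libraries lay above the arterioles. Kcnma1, at 2.25 and 3.23 per 1000, and Kcnmb1, at 3.64 and 2.10 per 1000, overlapped between arterioles and whole kidney.

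Kcnj8, Abcc9 and Ryr2 were lower per smooth muscle signal in arterioles than in whole kidney in all 4 libraries against all 4. Each was at 3 counts or fewer in 3 arteriole libraries, so these ratios mostly set a count near 0 against a large divisor. Kcnj8 stood at 0.131 against 10.3 per 1000, Abcc9 at 1.39 against 16.4 and Ryr2 at 0.0848 against 1.80. Kcnab1 was higher in arterioles than in glomeruli, capillaries and venules with no overlap. Of the 40 comparisons made (10 genes, arterioles against 4 groups), 13 reached the smallest p that a two-sided exact permutation test of 4 against 4 can give, 0.0286, with arterioles higher in 6 and lower in 7. After Benjamini-Hochberg adjustment over the 40 this became 0.0879, so no comparison passed.

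**Figure D3:**
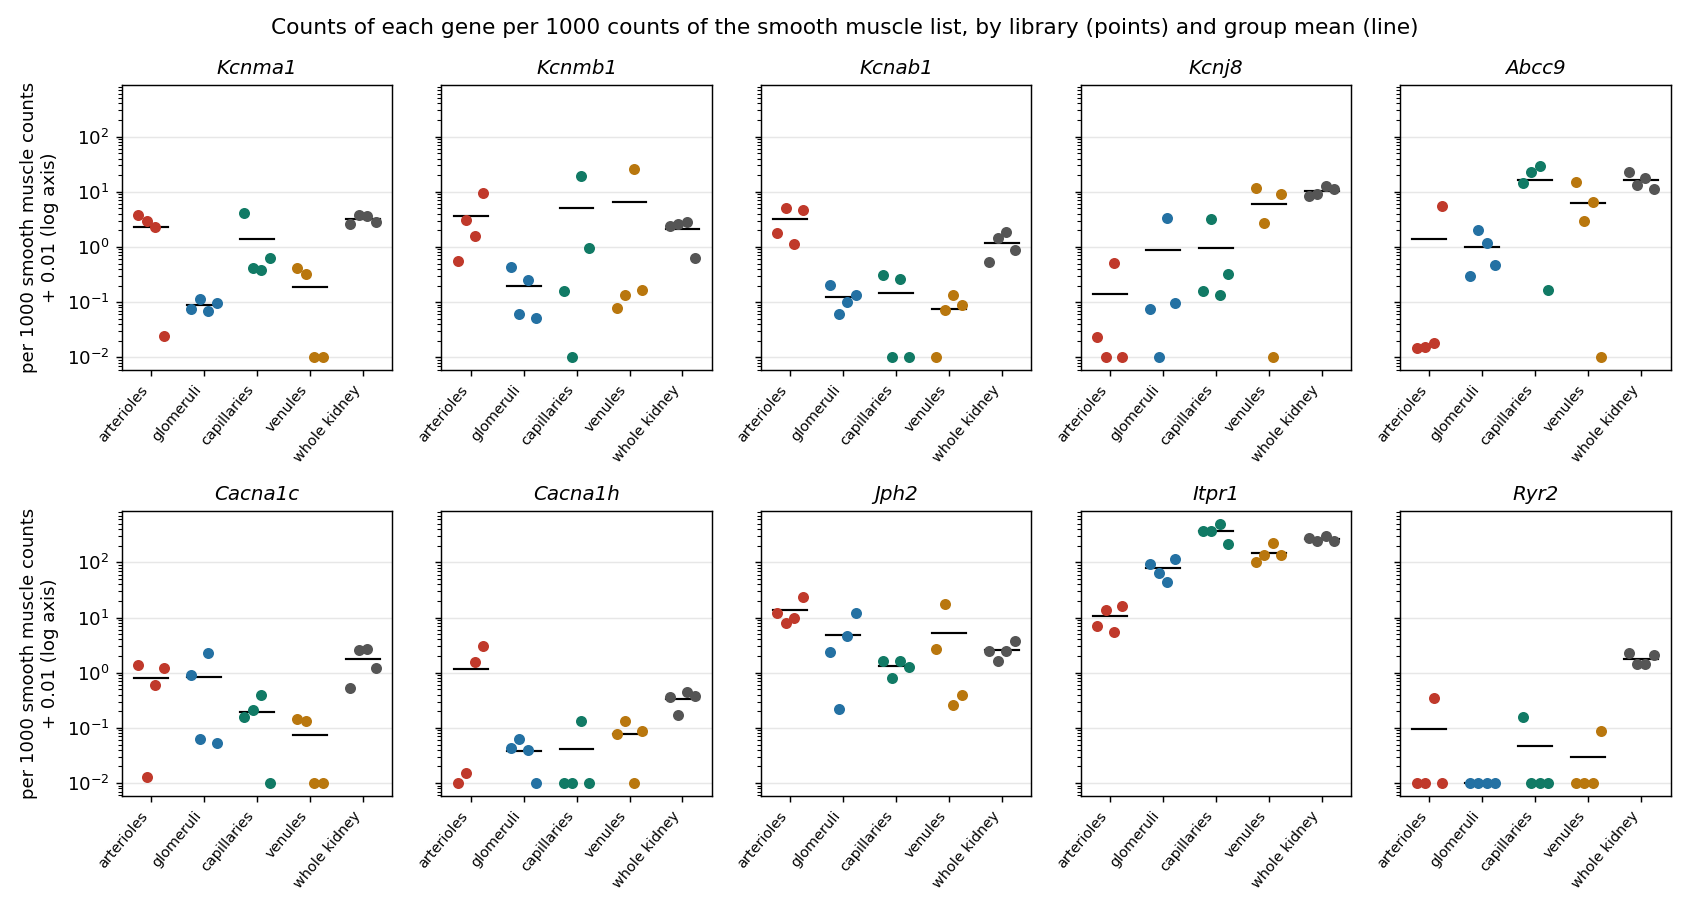
Counts of each gene per 1000 counts of the 15 contractile genes of smooth muscle, plus 0.01 on a log axis, in each library, with a line at the group mean. The mean of Itpr1 is lowest in arterioles at 10.5 per 1000 and highest in capillaries at 364, whereas that of Jph2 is highest in arterioles at 13.4.

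Several of these genes were carried by some libraries of a group and missing from others. In arterioles, 9 of the 10 genes reached 100 counts in at least 1 library, and 5 of these (Kcnma1, Kcnj8, Abcc9, Cacna1c and Cacna1h) were at 3 counts or fewer in another arteriole library. Of all genes tested that reached 100 counts in an arteriole library, 48.9% did the same. The count was 1 of 3 genes in glomeruli (26.9% of all genes), 2 of 3 in capillaries (41.1%) and 4 of 5 in venules (35.9%). In whole kidney it was 0 of 3, against 0.0534% of all genes. Whole kidney libraries each held 7 to 10 of the 10 genes above 3 counts, and arteriole libraries 5 to 9.

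Other genes of the same pathways were read from 4 lists in arterioles against whole kidney. The lists, too, were chosen with earlier results of these data known. These counts stand beside 5.78% of all genes called higher and 5.5% lower. Of 25 other potassium channel genes, 15 were tested, 4 were called higher and 1 lower, and the median log2 fold change was 2.38. The genes called higher included Kcna5, the pore of the Kv1.5 channel (98.5 against 1.00 CPM, log2 fold change 6.60, FDR 0.0209), Kcnk3, a background channel known as TASK-1 (225 against 8.25 CPM, 4.77, FDR 0.0263) and Kcnn4, an intermediate-conductance calcium-activated channel (104 against 0.938 CPM, 6.78, FDR 0.0422). Kcnab2, the Kv beta2 paralog of Kcnab1, was at 0 in all 4 arteriole libraries and at 2.59 CPM in whole kidney (FDR 0.0468). In measured counts this was at least 5.19-fold lower for a floor of 3 counts per library. Of genes that reached 100 counts in an arteriole library, 48.9% were at 3 or fewer in another, so the bound covers measured counts only. This lower call ended with the current form of the edgeR fit (FDR 0.147), with no filter on low counts (0.0986) and with DESeq2 (0.104).

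Of 28 other calcium entry genes, 23 were tested, 4 were called higher and 2 lower, with a median of 1.51. P2rx1, the ATP-gated cation channel of arterial muscle, rose from 2.40 to 216 CPM (log2 fold change 6.49, FDR 0.000295) and was the only gene of the 4 lists also called in glomeruli against whole kidney. Pkd1 rose from 18.02 to 322 CPM (4.16, FDR 0.000378), Trpv2 from 0.696 to 98.9 CPM (7.12, FDR 0.0200), and Cacna2d1, an auxiliary subunit of voltage-gated calcium channels, from 4.67 to 116 CPM (4.63, FDR 0.0442). Cacna1d, a second L-type pore gene, was at 0 in all arteriole libraries and at 5.79 CPM in whole kidney (FDR 0.0451). In measured counts only, this was at least 11.6-fold lower for the same floor. P2rx4 fell by 3.23 on the log2 scale, from 28.3 to 2.97 CPM (FDR 0.0349, edgeR). With the current form of the fit and with no filter, neither lower call held (FDR 0.154 and 0.0682 for Cacna1d, 0.0616 and 0.0669 for P2rx4), and that of P2rx4 was also lost with only the 8 libraries compared (0.0927).

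Of 23 other store genes, 22 were in the table, 13 were tested, 3 were called higher and 0 lower, with a median of 1.62. Pln, phospholamban, the inhibitor of the sarcoplasmic calcium pump, rose from 2.37 to 327 CPM (log2 fold change 7.10, FDR 0.000537). Fkbp1a, a ryanodine receptor binding protein, rose from 170 to 654 CPM (1.94, FDR 0.00433), and Itpr3, the type 3 inositol trisphosphate receptor, from 3.54 to 147 CPM (5.37, FDR 0.0299). Of 17 genes for calcium extrusion, chloride channels and second messenger partners, 15 were tested, 5 were called higher and 0 lower, with a median of 1.37. Atp2b4, a plasma membrane calcium pump, rose from 17.5 to 402 CPM (4.52, FDR 0.000237), Pde3a, a cyclic nucleotide phosphodiesterase, from 7.21 to 264 CPM (5.19, FDR 0.00132) and Prkg1, the cGMP-dependent kinase that acts on BK channels, from 2.50 to 89.0 CPM (5.15, FDR 0.0168, edgeR). Camk2g, a calcium-dependent kinase, rose from 9.60 to 190 CPM (4.31, FDR 0.0441). Of the named genes called higher here, P2rx1, Pkd1, Pln, Fkbp1a, Atp2b4 and Pde3a kept the call whichever library was left out, with Pkd1 at 3.28 without arteriole library 93. The calls of the other 8 ended without any 1 whole kidney library, and also without arteriole library 93 for Kcna5, 96 for Cacna2d1, Itpr3, Prkg1 and Camk2g, and 98 or 100 for Kcnn4. Of the genes called lower, Kcnab2 and Cacna1d lost the call without any 1 of the 8 libraries and P2rx4 without any but arteriole library 98, without which its log2 fold change was -4.65. Prkg1 also lost its call with no filter (FDR 0.0623). Kcnn4 and Itpr3 each lay above all of whole kidney in 3 arteriole libraries, and their lowest arteriole library was at 0.322 and 0.535 CPM.

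**Figure D4:**
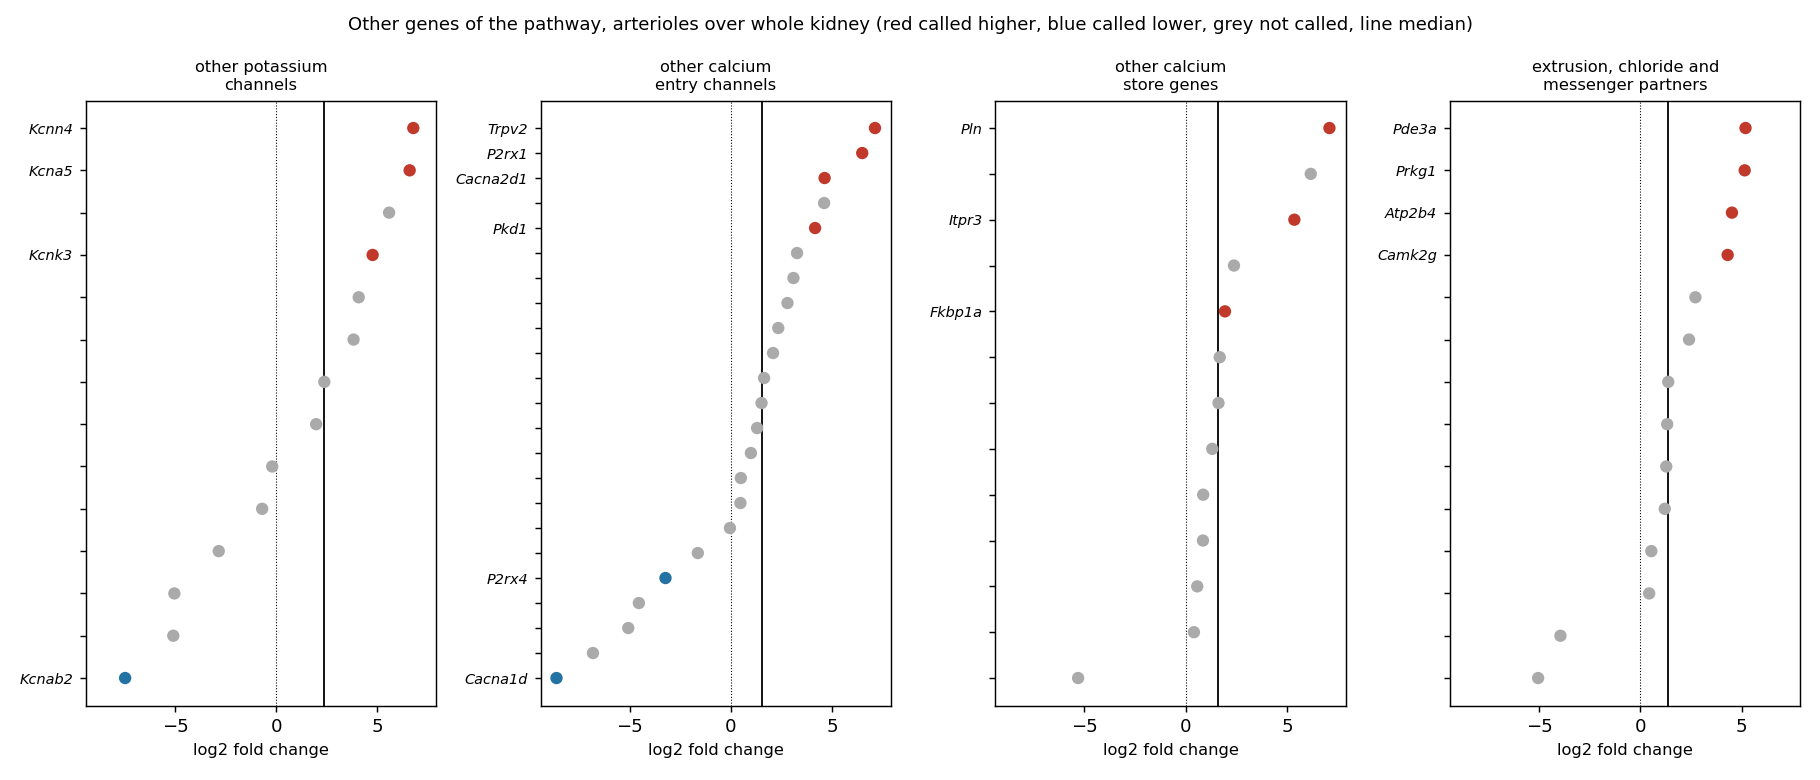
Log2 fold changes in arterioles over whole kidney of the genes of 4 other pathway lists, labelled where named in the text, red where called higher, blue where called lower and grey where not called, with a line at the median of all tested genes of each list. The medians lie at 2.38, 1.51, 1.62 and 1.37, beside 0.22 over all genes tested.

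The genes most like each member were sought as the smallest root mean square difference between centred profiles of log2(CPM + 1) over 20 libraries, as a description with no test. For Jph2 they were Acta2, the smooth muscle actin (difference 1.22), and Ppp1r12b, a subunit of myosin phosphatase (1.24), both among the 15 contractile genes, against a median of 3.61 over all genes. For Kcnab1 they were Optc (0.679) and Pi15 (0.697), with arteriole means of 311 and 196 CPM. For Kcnma1 the nearest was Cytl1 (0.976), and for Kcnmb1 Sh3bgr (1.26) and Fbxl22 (1.39). The genes nearest to Cacna1c were Gm37258 and Pik3c2b, to Cacna1h Asb4 and Synpo2l, to Kcnj8 Slc44a3 and Ttc5, to Abcc9 Ccng2, and to Itpr1 Ube2q1 and Tomm7. A flat profile would lie at 0.654 from Itpr1, against 0.460 for Ube2q1. For Kcnj8 it would lie at 1.59, against 0.952 for Slc44a3. Nearness in this measure is therefore not read as shared expression.

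Reads of overlapping genes were checked because no source used here gives the strand setting of the counting, so overlapping genes cannot be told apart. Kcnip1 overlaps Kcnmb1 on the opposite strand and had 2 counts over the 20 libraries. Dcp1b overlaps Cacna1c on the opposite strand and had 1 count over the 4 arteriole libraries, 551 over the glomerular and 192 over the whole kidney libraries. Gm18981, a processed pseudogene within Cacna1c on the same strand and outside its exons, had 1074 counts in arteriole library 96, the library with 1 count of Cacna1c, and 0 in the other 3 arteriole libraries. Gm44040, antisense to Itpr1, had 186 counts in capillary library 93 and 1 over all others. The overlapping genes of the remaining members that have a row in the table held at most 36 counts over the 20 libraries.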

How the data were processed

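The authors deposited raw gene counts for 20 control libraries, 4 in each of 5 groups, together with 148 columns of other samples that were not used. Per their methods, 3′ mRNA libraries were trimmed with bbduk, aligned with STAR 2.7 to GRCm38.p6 and counted with HTSeq 0.13. Strand handling was not stated. The 10 members and all gene lists (12 of cell type markers, 4 of pathway genes) were chosen with earlier results of these data known.

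Counts were fitted with edgeR 4.0.16 in R 4.3.3 (TMM, filterByExpr, quasi-likelihood test in its version 3 form), over 20 libraries against whole kidney (13813 genes tested) and over 16 microdissected libraries between compartments (12179 genes), with Benjamini-Hochberg FDR under 0.05 over all genes tested. Against whole kidney a log2 fold change over 1 was required, and for a marker at least 10 CPM in all 4 libraries. The approximate SE is the log2 fold change divided by the square root of F. The pipeline was tested on simulated data. Named genes were the 10 members, up to 4 higher and 2 lower calls of smallest p per pathway list (Camk2g was added after its values were seen), the 2 nearest profiles of each member above 10 CPM in a group, and overlapping genes. Ratios to the smooth muscle list used 0.5 added counts and a two-sided exact permutation test. Alternatives were the current form of the fit, a replicate block, DESeq2 1.42.0 (Wald test and size factors), other filters and scalings, only the 8 libraries compared, another divisor and added count, and leaving out each library. Totals ranged from 4639090 to 12283098 counts per library. Positions are GENCODE M21 on GRCm38. Promoter sequences came from a RefSeq table (GRCm38.p6), which held windows for 8 members. A few genes that these rules select are not reported here, nor drawn where called.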

Additional observations from a re-analysis of the deposited data

Results flagged for a closer look

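In 9 of the 39 groups of 4 libraries in which a gene exceeded 3 counts, 1 library stood far above the other 3 by Dixon's test. For normally distributed values the test flags about 1 in 20, or 1.95, but CPM with libraries near 0 are not of that kind. Of all genes with a library at 100 counts, 26.9% to 48.9% were at 3 or fewer in another library of the same microdissected group. The 9 are therefore not read as an excess. Abcc9 reached 134.6 CPM in arteriole library 100, with the next library at 0.322 CPM. Kcnmb1 reached 38.72 CPM in venule library 98 (next 0.268 CPM) and 17.96 CPM in capillary library 98 (next 1.17 CPM). Jph2 reached 34.15 CPM in venule library 96 (next 4.48 CPM). Kcnj8 reached 14.5 CPM in arteriole library 98 (next 0.640 CPM), 8.572 CPM in glomerular library 98 (next 0.221 CPM) and 2.36 CPM in capillary library 96 (next 0.391 CPM). Ryr2 reached 9.667 CPM in arteriole library 98, with the others at 0, and Kcnma1 3.356 CPM in capillary library 93 (next 0.782 CPM). Of the 9, 5 lay in a library numbered 98.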

How the results depend on the processing

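The number of members called higher in arterioles than in whole kidney was 4, 7 with DESeq2's Wald test and 2 to 5 without 1 library. For arterioles against glomeruli it was 4, and 2 to 4 without 1 library. Against capillaries it was 3, then 5 with the current form of the fit, 5 with an independent filter on the mean count and 6 with DESeq2. Higher calls over all genes rose there too, from 758 of 12179 to 1369 with the current form and 1820 of 12482 with DESeq2. Against venules it was 3, then 5 with the current form and 5 with DESeq2, while over all genes it was 305, then 831 and 1125. The share over all genes with the independent filter is not given here. Jph2 alone was called higher in glomeruli than in whole kidney with the independent filter (count 1), in glomeruli against capillaries with no filter, the independent filter or DESeq2 (1 each; 0 to 1 without 1 library), and in venules against capillaries with the independent filter (1). The cause was not tested. Abcc9 in arterioles against whole kidney turned from 1.65 to -5.33 without arteriole library 100, with other values without 1 library up to 2.06. Cacna1c and Itpr1, not called there, were called with the current form (FDR 0.0078 and 0.0494). With the replicate number as a block, 3 members were called against whole kidney (Kcnma1 lost, 4.93, FDR 0.0557), 4 against glomeruli, 3 against capillaries (Kcnma1 lost, Kcnmb1 gained) and 4 against venules (Kcnmb1 gained). Over all 12179 genes the block gave 145, 603 and 281 higher calls against glomeruli, capillaries and venules. Among the pathway genes the block ended the calls of Itpr3 (5.37 to 3.34, FDR 0.161), Kcnn4 (FDR 0.0889), Cacna2d1 (FDR 0.0708) and Camk2g (FDR 0.057). The labels tie the numbers to no mouse, and the main fit left them out. The paper states that arterioles, glomeruli and venules of a mouse were collected from the same slide. Deviations of same-numbered libraries correlated at -0.0432 to 0.0595 over 40 pairs. The mean was 0.00731 for the same number and -0.00246 for other numbers, and 12 of 20 libraries correlated best with their own number. These values do not settle whether the numbers mark mice. Over all genes, calls against whole kidney in arterioles were 798 higher and 760 lower, 2051 and 654 with the current form, 1769 and 2032 with DESeq2, and 686 and 1051 with the block, where the median log2 fold change of all genes moved from 0.22 to -0.69. Of the alternatives' fold changes, 564 kept direction and side of the threshold, 112 lost the call and 6 gained it. Low counts limited Cacna1h and Ryr2, which were at 4 counts or fewer and at 1 count or fewer in every microdissected library outside the arterioles.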
